A study of Schmidtea mediterranea with 24 samples.

Results

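RNA of *post2b* RNAi planarians was compared directly with RNA of *lox5b* RNAi planarians, without the control animals. Both are Hox genes, but they were silenced in separate groups of animals, so the comparison asks which transcripts differ between the loss of one Hox gene and the loss of the other. Its members were the 4 *post2b* RNAi libraries and the 4 *lox5b* RNAi libraries, 8 of the 24 libraries of the series, and the 15117 of 22197 annotated genes that reached a TPM of 0.5 in at least 4 of these 8 libraries. TPM (transcripts per 1000000 transcripts) scales reads by transcript length and by the library's total, so levels can be compared between genes, but values in 1 library depend on each other. At that limit, the fourth-highest value of the 8 was 0.5004 TPM for the gene just inside (SMESG000042588.1) and 0.4993 TPM for the gene just outside (SMESG000038225.1).

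All animals were asexual adults of the clonal CIW4 strain of *Schmidtea mediterranea*. *post2b* RNAi animals were fed purified dsRNA of *post2b*, *lox5b* RNAi animals dsRNA of *lox5b*, and control RNAi animals dsRNA of *unc-22*. All groups received 7 feedings and were then starved for 5 days. Each library pooled the RNA of 3 whole animals, and no source says that pools came from separate cultures, so the p-values measure the spread between pools. Neither control RNAi libraries nor those of *hox1*, *hox3a* and *hox3b* RNAi were in the main test. Control RNAi is given as levels beside the comparison. Levels of *hox1*, *hox3a* and *hox3b* RNAi are not printed. Their means entered where the RNAi groups of the series are ranked, and their libraries entered an alternative fit on all libraries.

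Hox genes encode homeodomain transcription factors that give cells their position along the head-to-tail axis of bilaterian animals. Planarians of the asexual strain reproduce by transverse fission, in which the tail grips the substrate and the body tears. Adhesion along the body edge is carried by the marginal adhesive gland, where viscid gland cells in the parenchyma send secretions through epidermal anchor cells to the surface. RNAi by feeding lowers the transcript that matches the dsRNA in the whole animal, and RNA of whole animals mixes all cell types. In such bulk RNA, fewer cells of a type and less RNA per cell cannot be told apart.

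The dsRNA triggers are what sets the groups apart, and each was made from a cloned fragment whose ends are fixed by a primer pair. The gene-specific parts of these primers are shown because they define which transcript was targeted, without the cloning overhang that all 36 primer pairs of the study share:
post2b forward: gtcaattaacgaattctccggat
post2b reverse: gatataactgaatcgctctgtcg
lox5b forward: actcaaaatctgaatttgccgta
lox5b reverse: tgatttgcctttccgttaaagat
Each is printed 5′ to 3′ and has 23 bases. The tables used here pair neither target with a gene ID, so the loss of *post2b* and *lox5b* RNA itself was not analysed here.

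The reads behind the TPM values could be recovered as whole numbers for all 20190 genes detected in the series, within 0.01 reads. The *post2b* RNAi libraries held between 9232440 and 12246250 reads, the *lox5b* RNAi libraries between 7254072 and 10033956 and the control RNAi libraries between 9793922 and 11467052. *lox5b* replicates 1 and 2 were the shallowest, at 7437407 and 7254072 reads. Between 17189 and 17713 genes had any reads in *post2b* RNAi, against 16685 to 17109 genes in *lox5b* RNAi, a mean difference of 494 genes (exact two-sided permutation test, p = 0.0286, the smallest that 4 against 4 libraries can give). With a limit of 0.5 TPM the difference was 149 genes and the exact permutation p was 0.114. Pearson's r across genes was 0.991 to 0.993 between *post2b* RNAi libraries, 0.985 to 0.992 between *lox5b* RNAi libraries and 0.969 to 0.987 between the groups. The first principal component carried 48.9% of the variance and put all *post2b* RNAi libraries (18.1 to 28.3) apart from all *lox5b* RNAi libraries (-34.4 to -5.39). The *lox5b* libraries were spread wider on it than the *post2b* libraries, with *lox5b* replicates 3 and 4 nearest to *post2b* RNAi.

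More transcripts were higher than lower in *post2b* RNAi at 1.5-fold and above, whereas at 4-fold and above more were lower. A transcript was called different at 1.5-fold or more and an adjusted p under 0.05, from limma on log2(TPM + 0.5) with Benjamini-Hochberg adjustment over all tested genes, and all fold changes are on that scale. By that rule 557 genes were higher in *post2b* RNAi (3.68% of those tested) and 262 were lower (1.73%), 819 in all (5.42%). At 2-fold or more there were 153 called genes higher and 59 lower, and at 4-fold or more 13 higher and 27 lower. The median log2 difference of all tested genes was -0.01. Without the fold limit, 1175 genes were higher and 1708 lower at an adjusted p under 0.05, so that lower genes were then the more numerous. The groups did not overlap in 498 of the 557 higher and 238 of the 262 lower genes, against 9.9% of tested genes that lay wholly higher and 13.8% that lay wholly lower. The call itself favours genes without overlap. The counts moved with single libraries: 361 were higher without *post2b* replicate 1, 161 were lower without *lox5b* replicate 2, and 412 were lower without *lox5b* replicate 4. With both shallow *lox5b* libraries left out, 245 genes were higher and 119 lower.

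**Figure D1:**
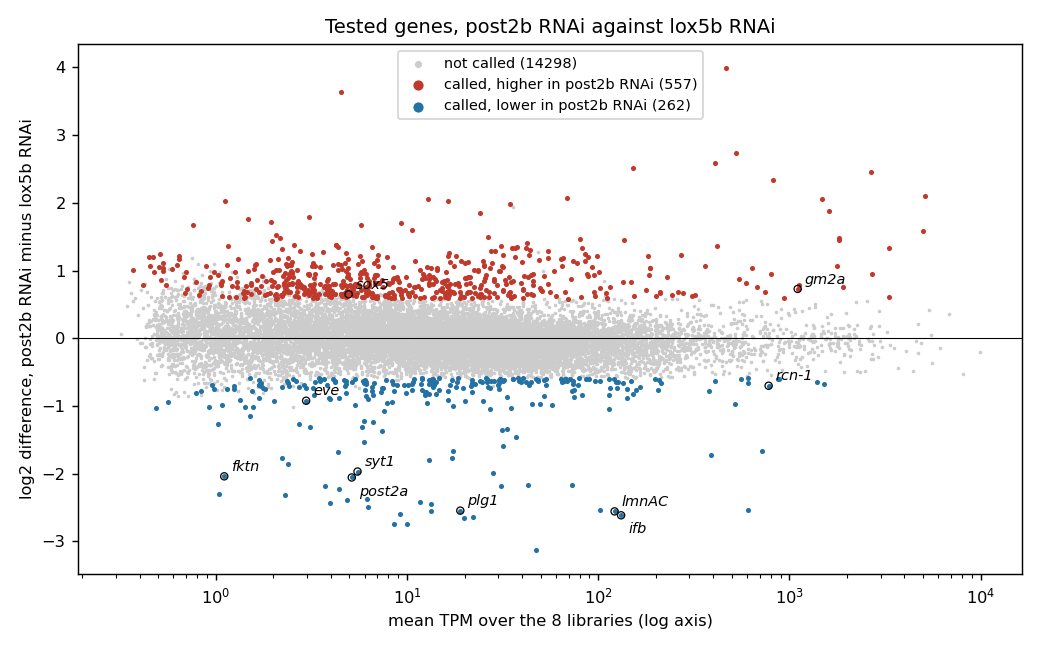
Each point is 1 of 15117 tested genes, with its mean TPM over the 8 libraries on a log axis and its log2 difference, *post2b* RNAi minus *lox5b* RNAi; red points are the 557 called higher and blue points the 262 called lower in *post2b* RNAi. Circles mark effectors named in the text, with the anchor cell transcripts *ifb*, *lmnAC* and *plg1* near -2.6 and *gm2a* at 0.73.

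The anchor cell transcripts of the marginal adhesive gland were the steepest named difference: all 7 measured members were called lower in *post2b* RNAi, with a median log2 difference of -2.49, against -0.01 over all tested genes. The study chose these effectors on these same libraries, as genes that change when *post2b* is silenced, so their direction is not independent evidence. It then kept genes whose own RNAi lowered fission progeny. By in situ staining, the paper also reports that *post2b* RNAi removed *ifb*, *lmnAC*, *syt1* and *rcn-1* signal at the lateral edge. The direct comparison sets the anchor cell transcripts against animals in which another Hox gene was silenced. The intermediate filament gene *ifb* (SMESG000062826.1), of a family of cytoskeletal proteins, had 79.7, 56.4, 22.4 and 15.3 TPM in *post2b* RNAi, against 213, 245, 225 and 197 TPM in *lox5b* RNAi and 267 to 333 TPM in control RNAi. Every *lox5b* library lay above every *post2b* library, and the log2 difference was -2.62 (standard error 0.40, limma adjusted p = 0.00207). *lmnAC* (SMESG000046289.1), whose human homolog forms the nuclear lamina, had 68.9, 55.6, 21.6 and 15.9 TPM in *post2b* RNAi, against 203, 224, 204 and 181 TPM in *lox5b* RNAi. It was thus 5.89-fold lower in *post2b* RNAi (log2 difference -2.56, limma adjusted p = 0.00152).

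The other anchor cell transcripts were less abundant and showed the same separation of the groups. *plg1* (SMESG000018456.1), a homolog of plasminogen, which in vertebrates is the precursor of a blood protease, had 9.44, 6.32, 3.96 and 2.69 TPM in *post2b* RNAi, against 30.4, 39.4, 33.4 and 26.4 TPM in *lox5b* RNAi. The log2 difference was -2.55 (standard error 0.28, limma adjusted p = 0.000327). *dd13286* (SMESG000074454.1) had 0.601 to 3.23 TPM in *post2b* RNAi, against 9.20 to 13.2 TPM in *lox5b* RNAi, and *dd20390* (SMESG000025361.1) 0.851 to 2.69 TPM in *post2b* RNAi and 8.96 to 12.1 TPM in *lox5b* RNAi. Neither has a named homolog, and they were 5.61-fold and 5.19-fold lower in *post2b* RNAi. The homeobox gene *barHl2* (SMESG000074896.1), of a family that specifies sensory and epidermal cell fates in flies, had 1.81, 1.72, 0.921 and 1.15 TPM in *post2b* RNAi, against 2.94, 4.80, 4.50 and 4.01 TPM in *lox5b* RNAi. Its difference was the smallest of the 7, at -1.27 on the log2 scale (standard error 0.20, limma adjusted p = 0.00257).

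The seventh anchor cell transcript is itself a Hox gene. *post2a* (SMESG000054107.1), a posterior Hox gene related to *post2b*, had 2.55, 2.18, 0.995 and 1.25 TPM in *post2b* RNAi, from 30, 20, 9 and 12 reads. In *lox5b* RNAi it had 8.41, 9.66, 9.52 and 6.56 TPM, from 61, 67, 92 and 56 reads, and in control RNAi 9.10 to 11.1 TPM. The log2 difference was -2.06 (standard error 0.22, limma adjusted p = 0.000322), and the 2 groups did not overlap. Whether the *post2b* dsRNA also matches *post2a* RNA was not tested. The only other Hox gene with a gene ID, *post1* (SMESG000003389.1), went the other way but missed the threshold. It passed without *lox5b* replicate 4 (limma adjusted p = 0.0319) or with no filter on low values (limma adjusted p = 0.0474). It had 0.609, 1.10, 0.634 and 1.34 TPM in *post2b* RNAi, from 5, 7, 4 and 9 reads, against 0.396, 0, 0.297 and 0.504 TPM in *lox5b* RNAi, from 2, 0, 2 and 3 reads (log2 difference 0.84, 95% interval 0.24 to 1.44, limma adjusted p = 0.0513).

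*post2b* RNAi libraries were not alike in how much anchor cell RNA they held. In all 7 anchor cell transcripts, replicates 1 and 2 lay above replicates 3 and 4, which holds for 16.2% of all tested genes. The summed level of the 7 was 38.0 to 168 TPM in *post2b* RNAi, 433 to 549 TPM in *lox5b* RNAi, and in control RNAi 575 to 729 TPM. The highest *post2b* library lay below the lowest *lox5b* library, and all 7 calls were kept under each of the 21 alternative settings tried.

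**Figure D2:**
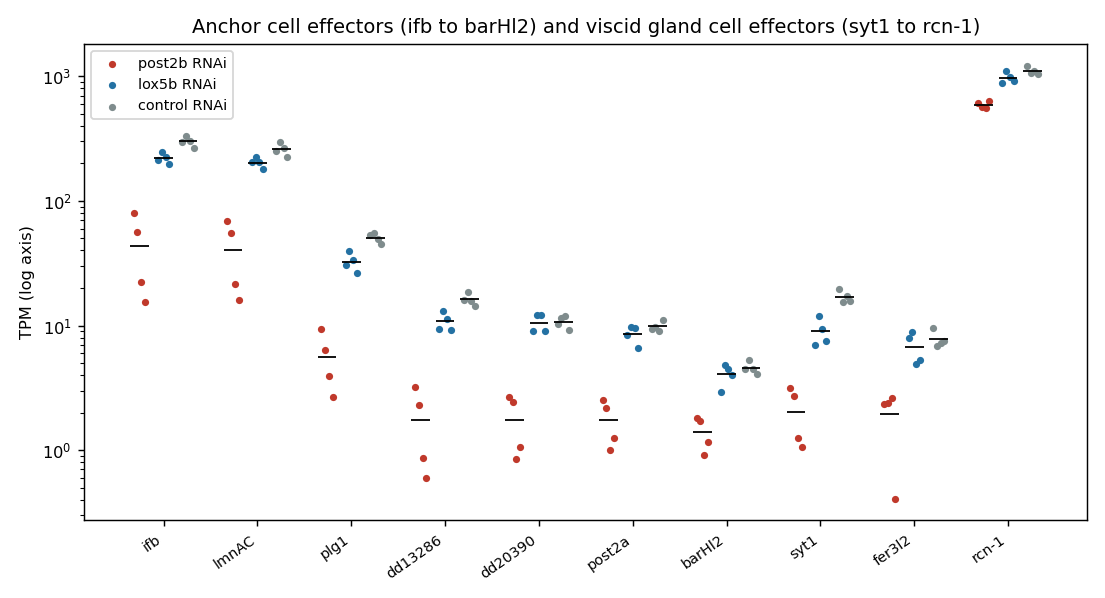
TPM of the 7 anchor cell and 3 viscid gland cell effectors on a log axis; each point is 1 library of *post2b* RNAi (red), *lox5b* RNAi (blue) or control RNAi (grey), and black lines are group means (n = 4 each). All *post2b* libraries lie below all *lox5b* libraries for the 10 transcripts, and the *post2b* libraries of *ifb* spread from 15.3 to 79.7 TPM.

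Viscid gland cell transcripts were also lower in *post2b* RNAi, all 3 of 3, with log2 differences from -1.97 to -0.70. *syt1* (SMESG000059797.1), a homolog of synaptotagmin, the calcium sensor of vesicle release, had 3.15, 2.70, 1.24 and 1.05 TPM in *post2b* RNAi, against 6.98, 12, 9.43 and 7.51 TPM in *lox5b* RNAi and 15.3 to 19.6 TPM in control RNAi. Control libraries were thus the highest of the groups here, *lox5b* libraries intermediate and *post2b* libraries lowest, and *post2b* against *lox5b* differed by -1.97 on the log2 scale (standard error 0.27, limma adjusted p = 0.00131). *rcn-1* (SMESG000034805.1), a homolog of reticulocalbin, a calcium-binding protein of the endoplasmic reticulum, had 605, 567, 559 and 638 TPM in *post2b* RNAi, against 878, 1095, 981 and 909.9 TPM in *lox5b* RNAi. The difference was small and even, with means of 592 ± 36.3 TPM in *post2b* RNAi and 966 ± 96.3 TPM in *lox5b* RNAi (SD, n = 4 each, log2 difference -0.70, standard error 0.08, limma adjusted p = 0.000316). The paper also reports *rcn-1* in parapharyngeal cells, where *post2b* RNAi did not change its staining, so these whole-animal levels are not those of viscid gland cells alone. The bHLH transcription factor gene *fer3l2* (SMESG000019274.1) had 2.34, 2.37, 2.62 and 0.409 TPM in *post2b* RNAi, from 14, 11, 12 and 2 reads, against 7.89, 8.82, 4.90 and 5.31 TPM in *lox5b* RNAi, from 29, 31, 24 and 23 reads. The log2 difference was -1.68 (limma adjusted p = 0.00902). With *lox5b* replicates 1 and 2 left out it was -1.35 and its adjusted p by limma was 0.0938.

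Of the 5 *post2b* effectors placed in neither cell type, 3 were called lower. The largest difference was in *fktn* (SMESG000017956.1), a homolog of fukutin, which acts in the glycosylation of dystroglycan in vertebrates. It had 0.175, 0.225, 0.114 and 0 TPM in *post2b* RNAi, from 2, 2, 1 and 0 reads, against 2.42, 2.38, 1.60 and 1.93 TPM in *lox5b* RNAi, from 17, 16, 15 and 16 reads. It had the fewest reads of the called effectors, and it reached the expression limit only through the *lox5b* libraries, so it had to differ. Its log2 difference of -2.04 (limma adjusted p = 0.00024) was -3.37 with a pseudocount of 0.1 TPM, -1.45 with 1 TPM, and -3.73 by limma voom on recovered reads. The homeobox gene *eve* (SMESG000015136.1), a relative of the fly pair-rule gene even-skipped, had 2.03, 2.05, 1.15 and 2.38 TPM in *post2b* RNAi, against 5.31, 3.45, 4.20 and 3.17 TPM in *lox5b* RNAi and 2.5 to 4.17 TPM in control RNAi (log2 difference -0.92, limma adjusted p = 0.0116). Its call too was lost with both shallow *lox5b* libraries left out (limma adjusted p = 0.0793). *zmym2* (SMESG000017878.1), a zinc finger gene, had 3.07 to 4.22 TPM in *post2b* RNAi, against 5.19 to 6.57 TPM in *lox5b* RNAi (log2 difference -0.64, limma adjusted p = 0.00982). Without *post2b* replicate 4 its log2 difference was -0.56, under 1.5-fold.

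The remaining 2 *post2b* effectors did not pass, though *nipbl* did without *lox5b* replicate 3 (log2 difference -0.66, limma adjusted p = 0.0444). *nipbl* (SMESG000018579.1), a homolog of the cohesin loader, had 0.752 to 1.23 TPM in *post2b* RNAi, against 0.937 to 2.09 TPM in *lox5b* RNAi, from 4 to 8 reads per library in either group (log2 difference -0.48, 95% interval -0.94 to -0.02, limma adjusted p = 0.13). *ncam2* (SMESG000060956.1), a homolog of a neural cell adhesion molecule, had 15.4, 9.41, 10.6 and 11.4 TPM in *post2b* RNAi, against 7.84, 7.83, 10.8 and 13 TPM in *lox5b* RNAi. Both groups overlapped and lay below the 18.1 to 24.3 TPM of control RNAi (log2 difference 0.24, 95% interval -0.15 to 0.64, limma adjusted p = 0.362). Over all 15 *post2b* effectors, 13 were called lower, against 1.73% of all tested genes, and the median log2 difference was -1.97. All 15 were chosen by the study on these same libraries as genes that change when *post2b* is silenced, so this is not independent evidence.

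The 3 effectors that the study placed under *lox5b* had higher means in *post2b* RNAi, but just 1 of them was called. The study chose these 3 on these same libraries, as genes that change when *lox5b* is silenced, so their direction is not independent evidence. *sox5* (SMESG000050484.1), an HMG-box transcription factor gene, had 7.27, 5.45, 6.07 and 5.50 TPM in *post2b* RNAi, against 2.49, 2.88, 4.69 and 5.26 TPM in *lox5b* RNAi and 8.19 to 9.55 TPM in control RNAi. The groups did not overlap, but *lox5b* replicates 3 and 4 came close to *post2b* RNAi, and the log2 difference was 0.65 (standard error 0.21, limma adjusted p = 0.0455). It did not hold in 11 of 21 alternatives, which included leaving out *lox5b* replicate 1 (limma adjusted p = 0.112), *lox5b* replicate 2 (limma adjusted p = 0.117) or any 1 of the *post2b* libraries. *samcp* (SMESG000058865.1), which encodes a sterile alpha motif, had 30.1, 19, 21.8 and 18.8 TPM in *post2b* RNAi, against 13.2, 11.9, 16.7 and 19.8 TPM in *lox5b* RNAi, and missed the threshold (log2 difference 0.53, 95% interval 0.15 to 0.90, limma adjusted p = 0.0525). *znf816* (SMESG000060422.1), a zinc finger gene, had 1.21 to 3.33 TPM in *post2b* RNAi, against 0.872 to 2.37 TPM in *lox5b* RNAi (log2 difference 0.41, 95% interval -0.23 to 1.05, limma adjusted p = 0.352). The median log2 difference of the 3 was 0.53. Without *lox5b* replicate 4, *samcp* passed (log2 difference 0.65, limma adjusted p = 0.0141).

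Effectors of the other Hox genes gave 1 call. *gm2a* (SMESG000000730.1), the effector of *hox1*, is a homolog of the activator protein that presents gangliosides to a lysosomal enzyme. It had 1559.8, 1413, 1262 and 1253 TPM in *post2b* RNAi, against 810.4, 609, 1014 and 923 TPM in *lox5b* RNAi and 1289 to 1722 TPM in control RNAi. All *post2b* libraries lay above all *lox5b* libraries (log2 difference 0.73, standard error 0.13, limma adjusted p = 0.00528). Without *lox5b* replicate 2 the log2 difference was 0.58, just under 1.5-fold. None of the 4 tested *hox3* effectors (*gfm2*, *dd25334*, *ctbp2* and *ca7*) was called, with log2 differences between 0.21 and 0.38 and limma adjusted p-values of 0.179 or more. At an unadjusted p under 0.05 the count was 0, against 5253 of the 15117 tested genes. Limma voom on the recovered reads called 0 as well. The fifth, *tdg* (SMESG000013320.1), a homolog of a DNA repair glycosylase, stayed under the expression limit at 0.254 to 0.444 TPM in *post2b* RNAi and 0.0802 to 0.545 TPM in *lox5b* RNAi. The gene ID of *gfm2* differs between supplementary tables, and the one listed with the effectors was used.

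Beyond the effectors, a transcript named 16 kDa calcium-binding protein (SMESG000000553.1) had the largest drop among named genes. Its levels were 54.4, 56.8, 19.4 and 11.2 TPM in *post2b* RNAi, against 185, 175, 161 and 159 TPM in *lox5b* RNAi and 161 to 183 TPM in control RNAi. *lox5b* and control libraries overlapped, and every *post2b* library lay below both (log2 difference -2.54, standard error 0.41, limma adjusted p = 0.00274). Venom allergen 5 (SMESG000001227.1), of a family of secreted cysteine-rich proteins, had 23.1, 19.4, 15.8 and 11.9 TPM in *post2b* RNAi, against 38.0, 36.9, 49.9 and 55.8 TPM in *lox5b* RNAi and 93.9 to 113 TPM in control RNAi. Here both RNAi groups lay below control libraries, and *post2b* RNAi lowest (log2 difference -1.36, limma adjusted p = 0.00128). An innexin (SMESG000000555.1), a gap junction protein of invertebrates, had 0.145, 0.279, 0.188 and 0 TPM in *post2b* RNAi, from 2, 3, 2 and 0 reads, against 0.940, 0.737, 0.793 and 0.798 TPM in *lox5b* RNAi, from 8, 6, 9 and 8 reads (log2 difference -1.03, limma adjusted p = 0.00954, and 0.0725 with both shallow *lox5b* libraries left out). It reached the expression limit only through the *lox5b* libraries, so it had to differ.

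The 5 steepest drops, among called transcripts with a mean of at least 1 TPM and no overlap between groups, had no product name. SMESG000062814.1 had 16.4, 15.4, 4.48 and 5.93 TPM in *post2b* RNAi, against 85.7, 90.7, 83.5 and 75.3 TPM in *lox5b* RNAi and 63.4 to 78.2 TPM in control RNAi (8.74-fold lower in *post2b* RNAi, limma adjusted p = 0.000271). SMESG000051338.1 had 3.37, 2.43, 1.93 and 1.49 TPM in *post2b* RNAi, against 16.9, 18.6, 18.6 and 16.9 TPM in *lox5b* RNAi (6.70-fold lower in *post2b* RNAi, limma adjusted p = 1.13e-05). The other 3 were SMESG000067731.1, SMESG000010503.1 and SMESG000012340.1, with log2 differences of -2.74, -2.66 and -2.64. SMESG000028328.1, singled out after its values were seen, had 0 reads in all *post2b* libraries and 2, 4, 7 and 7 reads in *lox5b* RNAi. Set against a floor of 3 reads over the *post2b* group it was 7.91-fold lower in *post2b* RNAi, on 20 reads in all of *lox5b* RNAi. It reached the expression limit only through the *lox5b* libraries, so it had to differ. Among abundant transcripts, SMESG000014361.1, also singled out after its values were seen, had 443, 446, 271 and 247 TPM in *post2b* RNAi, against 1015, 1098, 1189 and 1038 TPM in *lox5b* RNAi. Of the 27 genes at least 4-fold lower, *post2b* RNAi had the lowest mean of all 6 RNAi groups in 27, against 23.2% of all tested genes, a count that choosing genes low in *post2b* RNAi itself raises. *post2b* replicates 1 and 2 lay above replicates 3 and 4 in 22 of the 27. Effectors, which the study chose on these same libraries, made up 7 of the 27, against 23 of the 15117 tested genes.

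The transcripts that were higher in *post2b* RNAi included a set of very abundant ones, and 15 of them carried 51.9% of the summed difference in TPM. The 557 higher genes together made up 6.63 to 8.29% of all TPM in *post2b* RNAi, 2.46 to 3.88% in *lox5b* RNAi, and in control RNAi 6.60 to 7.62%. The 262 lower genes made up 1.21 to 1.32% in *post2b* RNAi, 1.99 to 2.64% in *lox5b* RNAi, and in control RNAi 1.55 to 1.80%. For the higher genes, *post2b* and control libraries overlapped, and *lox5b* libraries lay below both.

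A run of 10 transcripts with neighbouring IDs, from SMESG000035323.1 to SMESG000035335.1, held many of these, and was singled out after the values were seen. All 10 consecutive tested IDs were called higher in *post2b* RNAi, with a median log2 difference of 2.2 and a range of 1.58 to 3.99. No product name is listed for any of them, and whether the genes lie side by side in the genome was not analysed here. Whether they are near-identical copies, which could affect how reads were counted for each, was not tested. The 10 together had 17252, 18562, 17667 and 12255 TPM in *post2b* RNAi, against 4814, 2703, 4114 and 6502 TPM in *lox5b* RNAi and 10854 to 14660.2 TPM in control RNAi. *post2b* replicate 4 was the lowest and *lox5b* replicate 4 the highest of their groups, and the groups did not overlap. SMESG000035323.1 was the extreme, with 734, 1032, 1037 and 675 TPM in *post2b* RNAi, against 61.8, 22.1, 47.3 and 123 TPM in *lox5b* RNAi and 293 to 563 TPM in control RNAi (15.9-fold higher in *post2b* RNAi, limma adjusted p = 0.000159). SMESG000035328.1, SMESG000035326.1 and SMESG000035329.1 were 6.63-fold, 6-fold and 5.69-fold higher in *post2b* RNAi. The most abundant, SMESG000035335.1, had 7826, 8573, 8017 and 5383 TPM in *post2b* RNAi, against 2864, 1635, 2315 and 3327 TPM in *lox5b* RNAi.

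**Figure D3:**
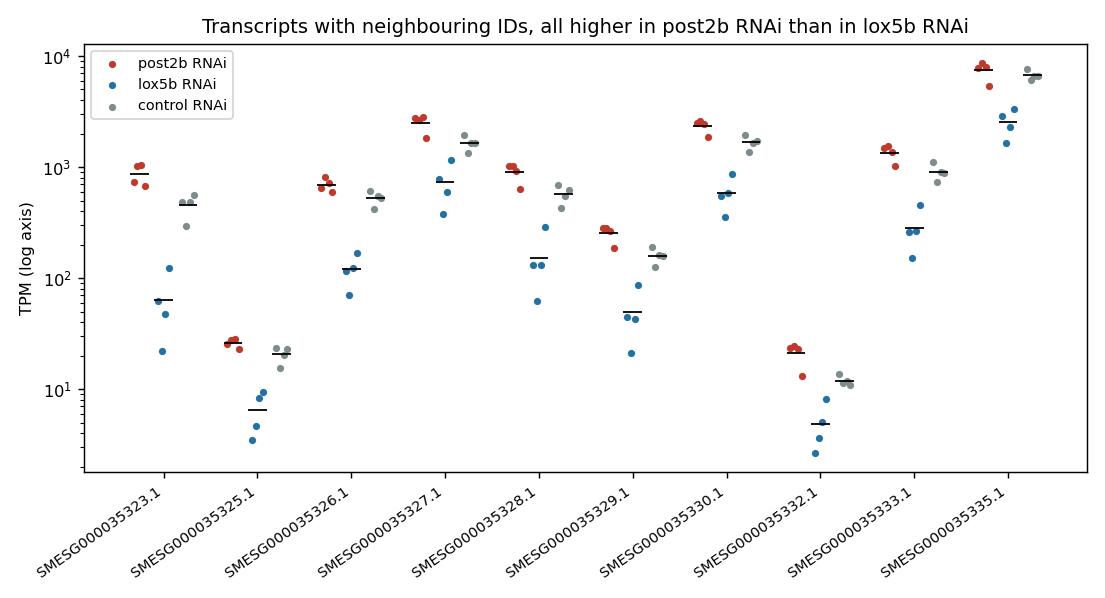
TPM on a log axis of the 10 transcripts with neighbouring IDs; each point is 1 library of *post2b* RNAi (red), *lox5b* RNAi (blue) or control RNAi (grey), and black lines are group means (n = 4 each). All *post2b* libraries lie above all *lox5b* libraries in each transcript, with the widest gap in SMESG000035323.1.

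A second run of 5 IDs, from SMESG000028258.1 to SMESG000028264.1, was similarly abundant, and the 15 genes of both runs are those that carried 51.9% of the summed difference. It summed to 16523, 18561, 17109 and 13355 TPM in *post2b* RNAi, against 5473, 3379, 5315 and 6314 TPM in *lox5b* RNAi and 11399 to 13868 TPM in control RNAi. SMESG000028264.1 alone had 8433, 9588, 8814 and 6479.7 TPM in *post2b* RNAi, against 2017, 1295, 2094 and 2498 TPM in *lox5b* RNAi (log2 difference 2.10, standard error 0.18, limma adjusted p = 7.52e-05). Another abundant transcript outside both runs, SMESG000074187.1, had 4718, 4989.5, 4794 and 3431 TPM in *post2b* RNAi, against 810.3, 496, 893 and 1194 TPM in *lox5b* RNAi. Of the 13 genes at least 4-fold higher, 9 belonged to these 2 runs, and *lox5b* RNAi had the lowest mean of all 6 RNAi groups in 13, against 35.5% of all tested genes, with the same limit of choice. In all, 8 runs of 3 or more consecutive tested IDs were called in 1 direction, 5 higher with 26 genes and 3 lower with 12 genes. Apart from the runs, SMESG000035250.1 had 23, 56, 37 and 28 reads in *post2b* RNAi, against 1, 0, 1 and 1 reads in *lox5b* RNAi, which is 4.59, 14.4, 9.61 and 6.83 TPM against 0.324, 0, 0.243 and 0.275 TPM. It reached the expression limit only through the *post2b* libraries.

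Named enzymes were among the transcripts that were higher in *post2b* RNAi, though just 544 of the tested genes (3.60%) have a product name here. SMESG000003402.1, named cytochrome P450 2U1 after a mammalian enzyme that hydroxylates fatty acids, had 88.4, 49.0, 48.3 and 61.1 TPM in *post2b* RNAi, against 18.8, 16.4, 25.2 and 31.2 TPM in *lox5b* RNAi and 34.4 to 78.1 TPM in control RNAi. *post2b* and control libraries overlapped while *lox5b* libraries lay below both (2.65-fold higher in *post2b* RNAi, limma adjusted p = 0.00202). Of 23 tested genes of lipid and sugar metabolism, 5 were called higher and 0 lower, with a median log2 difference of 0.15. Over all tested genes 3.68% were called higher. Besides cytochrome P450 2U1 and *gm2a* these were an aldehyde dehydrogenase (SMESG000001723.1, log2 difference 0.67), an alpha-tocopherol transfer protein-like gene (SMESG000009874.1, log2 difference 0.66) and the pentose phosphate pathway enzyme transketolase (SMESG000000388.1, log2 difference 0.60). At an unadjusted p under 0.05 the list held 12 genes, against 5253 of the 15117 tested genes. Limma voom on the recovered reads called 6 of the list. Histidine ammonia-lyase (SMESG000002559.1), which starts histidine breakdown, had 10.3, 11.3, 12.1 and 12 TPM in *post2b* RNAi, against 7.05, 6.30, 7.02 and 7.18 TPM in *lox5b* RNAi. The libraries of each group were tight, and the log2 difference was 0.69 (standard error 0.10, limma adjusted p = 0.00152).

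Endothelin-converting enzymes, membrane metalloproteases that cut peptides outside the cell, were called higher in *post2b* RNAi in 3 genes with nearby IDs. They were the called members among the 8 tested genes of extracellular proteases and their inhibitors, of which 0 were called lower. In this list 4 genes had an unadjusted p under 0.05, against 5253 of the 15117 tested genes, and limma voom called 3. Over all tested genes 3.68% were called higher. SMESG000003216.1 had 34.9, 30.4, 30.9 and 33.8 TPM in *post2b* RNAi, against 17.7, 15.7, 21.6 and 17.2 TPM in *lox5b* RNAi and 39.1 to 47.6 TPM in control RNAi (log2 difference 0.84, standard error 0.10, limma adjusted p = 0.00049). SMESG000003235.1 had 7.05, 6.95, 5.01 and 8.46 TPM in *post2b* RNAi, against 1.41, 2.26, 3.80 and 3.22 TPM in *lox5b* RNAi and 10.8 to 14.4 TPM in control RNAi (log2 difference 1.26, limma adjusted p = 0.00558). In both genes *lox5b* RNAi was lowest, *post2b* RNAi intermediate and control RNAi highest. The third, SMESG000003230.1, had 1.61 to 2.52 TPM in *post2b* RNAi, against 0.753 to 1.14 TPM in *lox5b* RNAi (log2 difference 0.82, limma adjusted p = 0.0107), and 0.0912 with both shallow *lox5b* libraries left out.

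**Figure D4:**
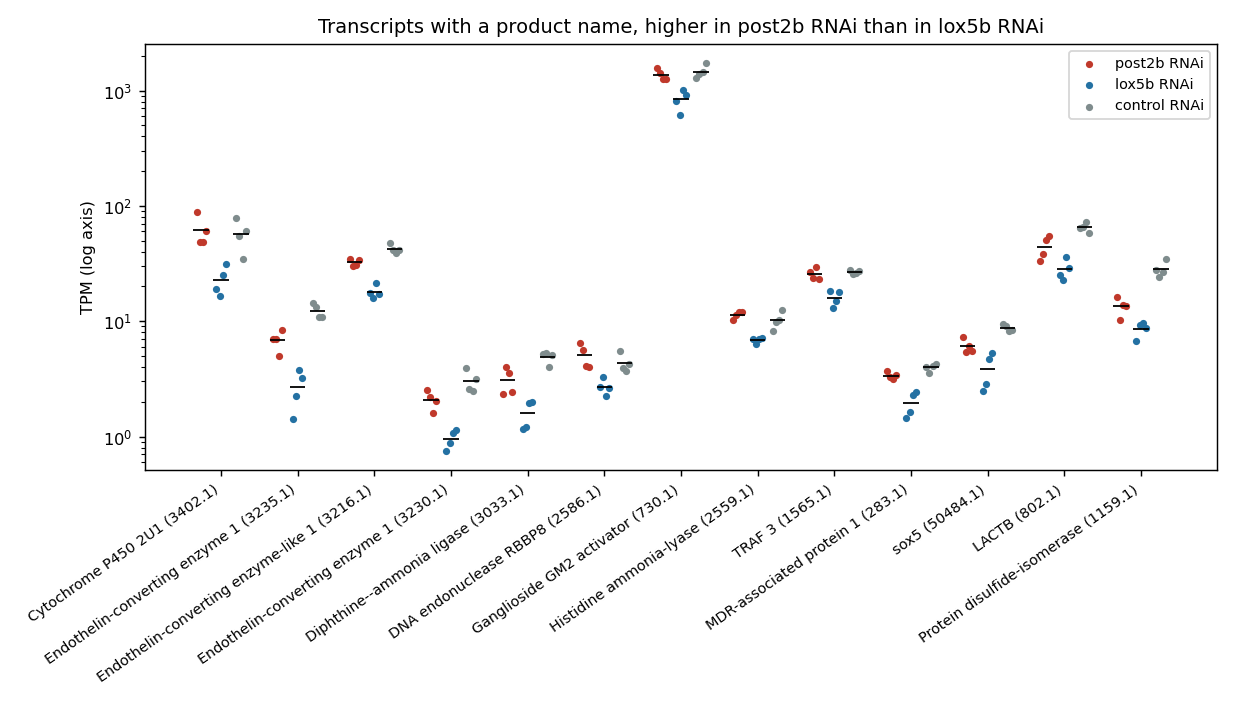
TPM on a log axis of 13 named transcripts called higher in *post2b* RNAi, with the number of each gene ID in brackets; each point is 1 library of *post2b* RNAi (red), *lox5b* RNAi (blue) or control RNAi (grey), and black lines are group means (n = 4 each). Control means lie above *post2b* means for both endothelin-converting enzymes 1, and at a similar level for cytochrome P450 2U1.

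Other named calls were small, and several were lost when any 1 of several libraries was left out. Higher in *post2b* RNAi were TNF receptor associated factor 3 (SMESG000001565.1), an adaptor of immune signalling in mammals, with 25.9 ± 3.05 TPM in *post2b* RNAi against 16 ± 2.60 TPM in *lox5b* RNAi (SD, n = 4 each), and DNA endonuclease RBBP8 (SMESG000002586.1), which trims DNA ends in repair, with 5.05 ± 1.22 and 2.70 ± 0.42 TPM in these groups (SD, n = 4 each). The first fell just under 1.5-fold without *lox5b* replicate 2, at a log2 difference of 0.58. Multidrug resistance-associated protein 1 (SMESG000000283.1), an export pump, had 3.37 ± 0.23 TPM in *post2b* RNAi against 1.95 ± 0.48 TPM in *lox5b* RNAi (SD, n = 4 each) and lost its call without *post2b* replicate 1 (limma adjusted p = 0.0532) or *lox5b* replicate 1 (log2 difference 0.58). Protein disulfide-isomerase (SMESG000001159.1), which forms disulfide bonds in secreted proteins, had 13.5 ± 2.49 TPM in *post2b* RNAi against 8.59 ± 1.34 TPM in *lox5b* RNAi, both below the 24.3 to 34.6 TPM of control RNAi (SD, n = 4 each). Its call was lost without *post2b* replicate 1 (limma adjusted p = 0.0534) or *lox5b* replicate 1 (log2 difference 0.51). Diphthine--ammonia ligase (SMESG000003033.1) and LACTB (SMESG000000802.1) had log2 differences of 0.78 and 0.63, and each lost its call without *lox5b* replicate 1 (limma adjusted p = 0.0682 and 0.0635), *lox5b* replicate 2 (0.0679 and 0.0649) or *post2b* replicate 3 (0.0693 and 0.0642). The first also lost it without *post2b* replicate 2 (limma adjusted p = 0.0754), and LACTB without *post2b* replicate 4 (limma adjusted p = 0.0633). With both shallow *lox5b* libraries left out, more of these calls were lost. Limma adjusted p-values were then 0.147 for the export pump, 0.0931 for protein disulfide-isomerase, 0.22 for the ligase and 0.201 for LACTB. TNF receptor associated factor 3 and RBBP8 kept their calls there.

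Lower in *post2b* RNAi were a G protein coupled receptor (SMESG000003129.1), with 1.20 ± 0.21 TPM in *post2b* RNAi and 2.33 ± 0.34 TPM in *lox5b* RNAi (SD, n = 4 each), and SMESG000070711.1, named after the membrane scission ATPase Vps4A, with 4.32 ± 1.08 and 7.69 ± 1.93 TPM in these groups (SD, n = 4 each). The first lost its call with both shallow *lox5b* libraries left out (limma adjusted p = 0.0709), the second without *lox5b* replicate 1 (limma adjusted p = 0.0619), *lox5b* replicate 2 (0.0648) or *post2b* replicate 3 (0.0533). A Tigger transposable element-derived protein (SMESG000000587.1) and the ubiquitin ligase ARIH2 (SMESG000000776.1) had groups that overlapped, and *lox5b* replicate 4 (25.7 and 21.1 TPM) lay within the range of *post2b* RNAi or next to it (20.5 to 26.5 and 17.6 to 22.1 TPM). Their log2 differences were -0.62 and -0.59. The ARIH2 call was lost in 16 of 21 alternatives, and the Tigger call without *lox5b* replicate 1 (limma adjusted p = 0.0609), *lox5b* replicate 2 (0.0522), *post2b* replicate 1 (0.0694) or *post2b* replicate 2 (0.0617). With both shallow *lox5b* libraries left out, the calls of SMESG000070711.1 and Tigger were lost too (limma adjusted p = 0.213 and 0.173).

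Few genes of the broader lists were called. Of 22 tested transcription factor genes, 4 were lower in *post2b* RNAi and 0 higher, namely *post2a*, *barHl2*, *eve* and SMESG000000956.1, named after pancreas transcription factor 1 subunit alpha (log2 difference -0.63, limma adjusted p = 0.0253). The first 3 are effectors that the study chose on these libraries, so 1 call lay outside them, and the effectors *sox5* and *fer3l2* were not in this list. At an unadjusted p under 0.05 the list held 15 genes, against 5253 of the 15117 tested genes, and limma voom called 3. By limma, none of 15 tested genes of cilia and axonemes, 9 of muscle contraction, 11 of Wnt, Hedgehog and Slit signalling, 14 Mx family GTPases, 12 of cell division and 4 cytosolic ribosomal proteins was called in either direction. Unadjusted p-values under 0.05 numbered 5253 over the 15117 tested genes. In these lists they numbered 10, 4, 4, 3, 5 and 0, in that order, and limma voom called 0 in each. Their median log2 differences lay between -0.32 for cilia and -0.02 for cell division. A call needs 1.5-fold, and the largest drop of a cilia gene was -0.47 on the log2 scale. Several cilia genes still had limma adjusted p-values under 0.05, such as SMESG000000577.1 (0.00375) and SMESG000000764.1 (0.00529). In this list 8 of 15 genes lay wholly lower in *post2b* RNAi and 1 wholly higher, against 13.8% and 9.9% of all tested genes. Among 35 tested neural receptors, channels and synaptic genes, the G protein coupled receptor was the 1 call. Elsewhere, 1 of 19 secretory pathway genes was higher and 1 lower, 1 gene each was higher among 25 mitochondrial, 14 TRAF family and 15 membrane transporter genes, and 1 each was lower among 6 transposable element, 21 adhesion and matrix, 27 ubiquitin and proteasome, 10 calcium and 4 venom allergen genes. These counts come from small lists, and the share called over all tested genes was 5.42%.

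Summed over all tested members, 7 of the 19 lists other than effectors and Hox genes lay wholly lower in *post2b* RNAi than in *lox5b* RNAi and 2 wholly higher, with no test, beside 13.8% and 9.9% of single tested genes. The lower ones were cilia and axonemes, muscle, neural genes, calcium genes, Mx family GTPases, cell division and the ubiquitin and proteasome list. The higher ones were extracellular proteases and lipid and sugar metabolism. In the calcium list the median log2 difference was 0.003, and 1 gene was called. That gene, SMESG000000553.1, had a mean of 35.5 TPM in *post2b* RNAi and 170 TPM in *lox5b* RNAi. In the protease list the median log2 difference was 0.09, and 3 of 8 tested genes were called higher. Neither of these sums therefore stands for its list as a whole. Medians were also small for ubiquitin and proteasome genes (-0.05) and cell division (-0.02). Those sums need not stand for their lists either. In lipid and sugar metabolism the median was 0.15, and *gm2a* alone had means of 1372 TPM in *post2b* RNAi and 839 TPM in *lox5b* RNAi. The medians were -0.32 for cilia, -0.21 for Mx family GTPases, -0.13 for neural and -0.11 for muscle genes. Cilia and axoneme genes summed to 959 to 1052 TPM in *post2b* RNAi, 1144 to 1333 TPM in *lox5b* RNAi, and in control RNAi 886 to 1006 TPM. Ubiquitin and proteasome genes summed to 1387 to 1463 TPM in *post2b* RNAi, 1574 to 1819 TPM in *lox5b* RNAi, and in control RNAi 1383 to 1442 TPM. Muscle genes summed to 2824 to 3312 TPM in *post2b* RNAi, 3365 to 3545 TPM in *lox5b* RNAi, and in control RNAi 2984 to 3175 TPM. In these 3 lists control libraries overlapped *post2b* RNAi and lay below *lox5b* RNAi. Neural genes summed to 238 to 279 TPM in *post2b* RNAi, 297 to 306 TPM in *lox5b* RNAi, and in control RNAi 277 to 304 TPM, which overlapped both groups. Mx family GTPases summed to 296 to 364 TPM in *post2b* RNAi against 380 to 481 TPM in *lox5b* RNAi, and cell division genes to 165 to 171 TPM in *post2b* RNAi against 175 to 209 TPM in *lox5b* RNAi. RNA of the mitochondrial contig summed to 231 to 302 TPM in *post2b* RNAi, 277 to 539.8 TPM in *lox5b* RNAi, and in control RNAi 265 to 288 TPM, with *lox5b* replicates 1 to 3 above all others. The part of these shifts in the results above was not tested.

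Control RNAi levels show on which side each difference lies. For the 557 genes higher in *post2b* RNAi, the control mean was above both groups in 433, between them in 124 and below both in 0. It was nearer to *post2b* RNAi in 544 (97.7%), and *lox5b* RNAi had the lowest mean of all 6 RNAi groups in 515 (92.5%), against 35.5% of all tested genes. The choice of genes with *lox5b* RNAi below *post2b* RNAi itself raises such counts. Over these genes the median log2 difference from control was -0.29 in *post2b* RNAi and -1.12 in *lox5b* RNAi. For the 262 genes lower in *post2b* RNAi, the control mean was above both groups in 56, between them in 128 and below both in 78. It was nearer to *post2b* RNAi in 169 (64.5%). The median log2 difference of these genes from control was -0.20 in *post2b* RNAi and 0.51 in *lox5b* RNAi. *post2b* RNAi had the lowest mean of all 6 groups in 166 of them and *lox5b* RNAi the highest in 168. The choice of genes raises these counts as well. Over all tested genes these were 23.2% and 23.1%. Over all tested genes the control mean was above both groups in 58.9% and nearer to *post2b* RNAi in 69.5%, and the medians from control were -0.14 in *post2b* RNAi and -0.15 in *lox5b* RNAi. For the 27 genes at least 4-fold lower in *post2b* RNAi the median from control was -2.65 in *post2b* RNAi and -0.24 in *lox5b* RNAi. For the 13 genes at least 4-fold higher the median from control was 0.49 in *post2b* RNAi, thus above control, and -1.84 in *lox5b* RNAi.

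**Figure D5:**
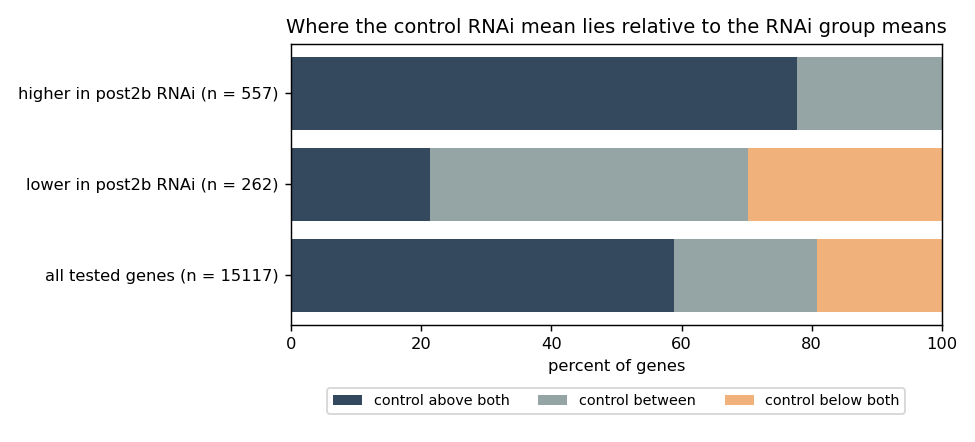
Percent of genes whose control RNAi mean (log2 scale) lies above both RNAi group means, between them or below both, for the 557 genes higher and the 262 genes lower in *post2b* RNAi than in *lox5b* RNAi and for all 15117 tested genes. The control mean lies above both groups in 433 of the 557 higher genes and in 56 of the 262 lower genes.

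*lox5b* RNAi libraries also differed among themselves along the same genes. Replicates 3 and 4 lay above replicates 1 and 2 in 57.8% of the 557 higher genes, against 29.3% of all tested genes. In the 262 lower genes replicates 1 and 2 lay above replicates 3 and 4 in 53.1%, against 20.3% of all tested genes. Choosing genes by the gap between the groups itself raises both shares. On the first principal component of all tested genes, *lox5b* replicates 1 and 2 (-28.5 and -34.4) lay farther from *post2b* RNAi than replicates 3 and 4 (-14.9 and -5.39). *lox5b* replicates 1 and 2 were also the shallowest, at 7437407 and 7254072 recovered reads. The part of depth in this was not tested.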

How the data were processed

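RNA of whole animals was sequenced as stranded mRNA libraries. Demultiplexing by the authors used bcl2fastq2 2.20. Their STAR run on the smed_dd_g4 assembly gave read counts for Smes_hv_v1 gene models. The TPM values were used as deposited by the authors, for 22197 genes, and sum to 1000000 in each library. The tool that computed TPM is not given in the sources used here. Whole reads were recovered from the steps between TPM values, for 100% of the 20190 detected genes with a largest deviation of 6.98e-10 reads.

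The main test was limma 3.58.1 in R 4.3.3 on log2(TPM + 0.5), with only the 8 libraries of the *post2b* RNAi and *lox5b* RNAi groups, an intensity trend, two-sided p-values and Benjamini-Hochberg adjustment over the 15117 tested genes. Fold changes are on the log2(TPM + 0.5) scale, which understates those of low genes. The calling step was tested on simulated data. Python 3.11.15 made the tables.

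Named were all 24 effectors with a gene ID, and the Hox genes with one; among called genes with a mean of at least 1 TPM and no overlap between groups, up to 10 with a product name and up to 5 whatever the name in each direction; and the called gene with the largest change in each list and direction. Lists come from product names in the part of a supplementary table used here. Members and lists were chosen with earlier results of these data known. Alternatives were other pseudocounts, filters, scaling, cutoffs, all 24 libraries, a replicate block, single libraries left out and, chosen after seeing the data, limma voom on recovered reads and both shallow *lox5b* libraries left out. The authors' own fold changes and p-values were not used.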

Additional observations from a re-analysis of the deposited data

Results flagged for a closer look

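Among the named genes, 106 groups of 4 libraries were checked for a library far from the other 3, and 2 stood out, where chance alone gives about 1 in 20. *fer3l2* had 2.34, 2.37 and 2.62 TPM in *post2b* replicates 1 to 3 and 0.409 TPM, from 2 reads, in *post2b* replicate 4. SMESG000035329.1, of the run of 10 neighbouring IDs, had 283, 280.1 and 267 TPM in *post2b* replicates 1 to 3 and 185 TPM in *post2b* replicate 4. Both lowest values came from the same library, and both genes kept their direction without it.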

How the results depend on the processing

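The number of genes called moved most with the cutoff: 176 genes (122 higher and 54 lower in *post2b* RNAi) at 2-fold and an adjusted p under 0.01, and 2883 (1175 higher and 1708 lower) with no fold limit, by limma. Leaving out single libraries gave 558 to 1185 genes in all, 361 (without *post2b* replicate 1) to 773 (without *lox5b* replicate 4) higher and 161 (without *lox5b* replicate 2) to 412 (without *lox5b* replicate 4) lower. With both shallow *lox5b* libraries left out, 364 genes were called (245 higher and 119 lower), and the log2 differences of *znf816* and *ncam2*, neither of them called, turned to -0.043 and -0.039. That setting leaves 2 *lox5b* libraries. The other alternatives kept all 3 counts within 1.5 times, and limma voom on recovered reads called 910 genes. Of the 819 genes, 332 were called again without the shallow libraries and 0 in the other direction under any alternative. The mean difference in detected genes was 149 at a limit of 0.5 TPM (exact permutation p = 0.114), against 494 at any read. Of 43 named calls, 23 were kept in every alternative that tested them, which was 20 alternatives for *fktn* and 21 for the rest of the 23. Replicate numbers do not pair the libraries, since same-numbered libraries of the 2 groups correlated at -0.207, 0.023, -0.089 and -0.077 in their deviations from the group means. With a replicate block, 716 genes were called (480 higher and 236 lower). Read numbers limit *fktn*, *nipbl*, *post1*, *tdg*, *dd25334* and the innexin, with at most 17 reads per library.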

Other observations

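Runs of neighbouring IDs were also found among moderately expressed transcripts, none of them chosen before their values were seen. The 6 consecutive tested genes from SMESG000016772.1 to SMESG000016782.1 were called lower in *post2b* RNAi and summed to 215 to 319 TPM in *post2b* RNAi, against 411 to 567 TPM in *lox5b* RNAi and 173 to 203 TPM in control RNAi. A run of 3 from SMESG000051913.1 to SMESG000051915.1 was lower too, at 723 to 955 TPM in *post2b* RNAi, against 1090 to 1517 TPM in *lox5b* RNAi and 559 to 746 TPM in control RNAi. In these lower runs *lox5b* libraries lay above all control libraries. The 5 genes from SMESG000072794.1 to SMESG000072807.1 were called higher, with 332 to 477 TPM in *post2b* RNAi, against 143 to 217 TPM in *lox5b* RNAi and 542 to 755 TPM in control RNAi. Product names of these genes and their positions in the genome were not analysed here.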
